A study of Homo sapiens with 9 samples.

Results

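The Notch genes described here are 9 genes of the pathway, chosen by symbol: the receptors NOTCH1, NOTCH2 and NOTCH3, the ligands JAG1, JAG2 and DLL1, the DNA-binding factor RBPJ and the targets HES1 and HEY1. All 9 were found among the 17911 genes of the count table, and all 9 passed the filter on low counts. RNA sequencing was done on cultures labelled MDA-MB-231, an established human breast cancer line of the triple-negative kind. There are 3 capsule samples and 6 liquid overlay spheroid samples, 3 called small and 3 called large. Liquid overlay is a way of growing spheroids over a surface to which cells do not attach.

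Every group, the capsules included, carries the same cell type entry (WT) and the same culture text. That text gives RPMI medium with 10% fetal bovine serum, 5% Matrigel, a trastuzumab treatment and 96 h of incubation. Trastuzumab is an antibody against the receptor ERBB2, and the labels name no untreated group. The 6 spheroid columns fall into 2 header sets of 3, one headed L.O. and one headed Sph.WT. Neither header gives a size, so neither set could be matched to the small or to the large spheroids. The sets are kept apart below under their header names. The labels do not say whether replicates were separate cultures, so p-values measure only the spread between these libraries, which may be technical.

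The 3 sets did not look alike in their cell line genes. Total counts per library were 13212665 to 13735221 in the capsules, 15525725 to 15988167 in the L.O. set and 16605098 to 33263076 in the Sph.WT set. CDKN2A, a cell cycle inhibitor whose locus is deleted in MDA-MB-231, stood at 523.6 ± 43.8 CPM (counts per 1000000 counts, SD, n = 3) in the capsules and 556.4 ± 122.0 CPM in the L.O. set, against 0.716 ± 0.121 CPM in the Sph.WT set. The summed level of 25 genes typical of MDA-MB-231 was 1256 to 1316 CPM in the capsules, 1552 to 1632 CPM in the L.O. set and 9517 to 10870 CPM in the Sph.WT set. For genes typical of HEK293, a human embryonic kidney line, 9 of 10 were in the table. Their summed level was 2140 to 2287 CPM in the capsules, 2013 to 2172 CPM in the L.O. set and 32.6 to 36.7 CPM in the Sph.WT set, where NEFL, PAX2 and MAB21L1 had 0 counts. The 6 libraries of the capsule and L.O. sets thus go against their cell line label. For capsules against either spheroid set, culture format, the cells themselves and the making of the libraries cannot be told apart. Both header sets fit the liquid overlay spheroid group, so between them it is spheroid size, the cells and the making of the libraries that cannot be told apart. Spearman correlations over genes were 0.978 to 0.987 between capsule and L.O. libraries and 0.755 to 0.777 between either of these and Sph.WT libraries. Results are therefore given first for capsules against the L.O. set, then with the Sph.WT set beside them.

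Notch receptors are cut at the cell surface after a ligand on a neighbouring cell binds them, first by ADAM proteases and then by gamma-secretase. The freed intracellular part enters the nucleus, joins RBPJ and a Mastermind coactivator on DNA, and turns on genes of the HES and HEY families, which encode transcriptional repressors. In breast epithelium the pathway takes part in the choice between luminal and basal fates, and in triple-negative tumours both receptor rearrangements and high JAG1 have been described.

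Between capsules and the L.O. set, 6 of the 9 Notch genes were lower in the capsules (NOTCH1, NOTCH3, JAG1, JAG2, DLL1 and HES1), HEY1 and RBPJ were higher, and NOTCH2 did not pass the test. Of all 16985 genes tested, 45.5% passed in this comparison, 22.5% higher and 23.0% lower (edgeR's quasi-likelihood test, Benjamini-Hochberg adjusted p under 0.05). The median log2 change of the 9 genes was −0.51, beside −0.02 over all genes tested, and their median absolute change was 0.51 beside 0.31. Fold changes were scaled with TMM factors, which correct for differences in composition, whereas levels are plain CPM, so a fold change can differ from a ratio of levels.

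**Figure D1:**
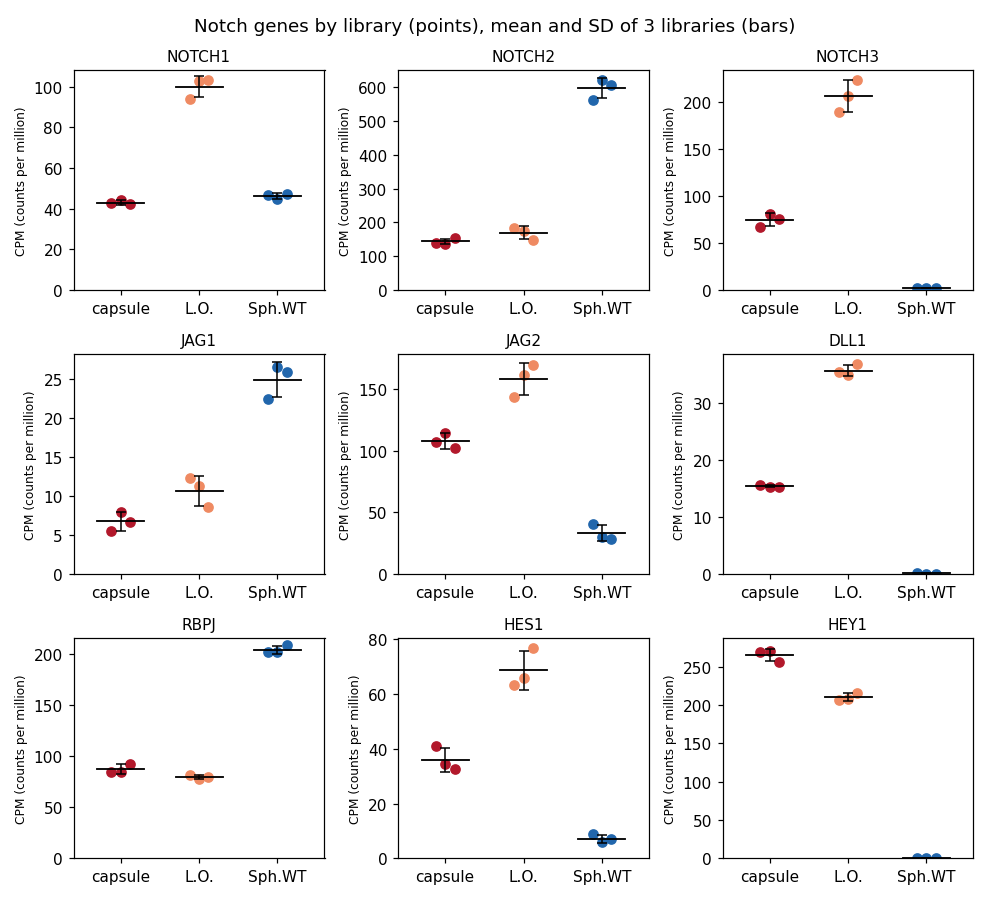
Level of each of the 9 Notch genes in CPM (vertical axes, each from 0) in the 3 libraries of each set, with the mean (line) and SD (bar). In this plain CPM only NOTCH2 has overlapping capsule and L.O. values, and NOTCH3, DLL1 and HEY1 lie near 0 in the Sph.WT set. How many of all genes are separate in the same way was not counted.

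NOTCH1, on chromosome 9 (GRCh38.p14, 136494433 to 136546048, minus strand), encodes a receptor with broad roles in cell fate. Its level was 42.8, 44.1 and 42.1 CPM in the capsules, 94.1, 102.8 and 103.1 CPM in the L.O. set, and 46.9, 44.8 and 47.3 CPM in the Sph.WT set. The L.O. libraries were all above the other 6, and no set overlapped another. NOTCH1 was lower in the capsules than in the L.O. set by a log2 change of −1.07 ± 0.08 (SE, edgeR adjusted p = 1.08e-09). Against the Sph.WT set the change was −0.42 ± 0.08 (edgeR adjusted p = 2.76e-05), which no longer passed when only library totals were used for scaling (−0.11, adjusted p = 0.19). NOTCH1 was the only receptor whose capsule and Sph.WT levels were close.

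NOTCH3, on chromosome 19 (GRCh38.p14, 15159038 to 15200995, minus strand), encodes a receptor best known from vascular smooth muscle and also described in breast tumours. It stood at 67.6, 81.0 and 76.1 CPM in the capsules, at 189.2, 206.8 and 223.2 CPM in the L.O. set and at 2.01, 2.23 and 1.69 CPM in the Sph.WT set. The 3 sets were fully separate, with every L.O. library highest and every Sph.WT library lowest. NOTCH3 had the largest change of the 9 genes between capsules and the L.O. set, −1.31 ± 0.09 (edgeR adjusted p = 3.37e-10). It was higher in the capsules than in the Sph.WT set by 4.89 ± 0.12 (edgeR adjusted p = 2.45e-20) and in the L.O. set than in the Sph.WT set by 6.20 ± 0.12 (edgeR adjusted p = 3.15e-22).

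NOTCH2, on chromosome 1 (GRCh38.p14, 119911553 to 120069662, minus strand), encodes a receptor close in structure to NOTCH1. Its levels were 140.5, 137.1 and 153.5 CPM in the capsules, 184.5, 175.8 and 149.0 CPM in the L.O. set, and 563.3, 621.4 and 606.2 CPM in the Sph.WT set. Capsule and L.O. values overlapped, and all Sph.WT values were higher. The change between capsules and the L.O. set was −0.09 ± 0.08 (95% interval −0.25 to 0.07, edgeR adjusted p = 0.384), and with library totals alone it was −0.24 and passed (adjusted p = 0.0188). Against the Sph.WT set NOTCH2 was lower by −2.37 ± 0.09 in the capsules and by −2.28 ± 0.08 in the L.O. set (edgeR adjusted p = 1.48e-17 and 2.57e-17). Reads of NOTCH2 may be shared with its near-identical partial copies. Among these, NOTCH2NLA had mean levels of 13.6, 15.1 and 32.6 CPM, and NOTCH2NLB 9.85, 9.68 and 37.3 CPM, in the capsule, L.O. and Sph.WT sets.

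Divided by exon length and taken as shares of the 3 receptors, NOTCH2 and NOTCH3 had 41.4% ± 2.26 and 38.5% ± 2.25 (SD, n = 3) in the capsules. In the L.O. set NOTCH3 had 52.6% ± 2.92 and NOTCH2 24.3% ± 3.27, and in the Sph.WT set NOTCH2 had 88.4% ± 0.70 and NOTCH3 0.52% ± 0.07. The receptor with the largest share thus differed between the L.O. and Sph.WT sets, with NOTCH3 first in all 3 L.O. libraries and NOTCH2 first in all 3 Sph.WT libraries. Shares do not depend on the scaling between libraries, but they do depend on the exon lengths used. The NOTCH3 share was separate between capsules and the L.O. set, with an exact 2-sided permutation p of 0.10, the smallest that 3 libraries against 3 allow (0.111 after Benjamini-Hochberg adjustment over the 21 comparisons of shares and of the HEY1 to HES1 ratio).

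**Figure D2:**
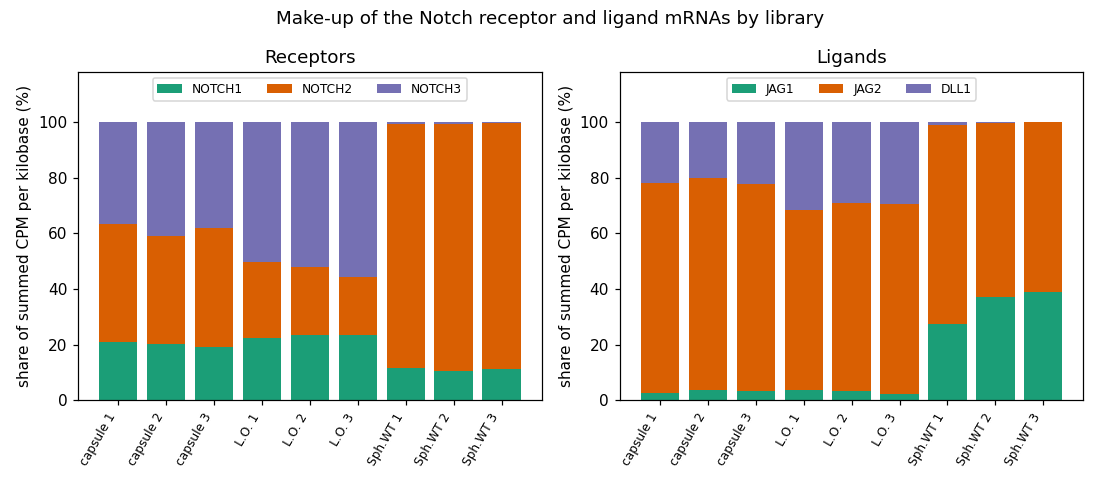
Share of each receptor (left) and each ligand (right) in the summed CPM per kilobase of its class, in percent, by library. NOTCH3 takes over 50% of the receptor sum in each L.O. library and under 1% in each Sph.WT library, where NOTCH2 takes 87.6% to 89.0%.

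JAG2, on chromosome 14 (GRCh38.p14, 105140995 to 105168776, minus strand), encodes a membrane-bound ligand of the Jagged class and was the most abundant of the 3 ligands. Its levels were 107.1, 114.3 and 102.0 CPM in the capsules, 143.3, 161.3 and 168.9 CPM in the L.O. set, and 40.4, 30.5 and 28.1 CPM in the Sph.WT set. No set overlapped another, and the order was L.O., then capsules, then Sph.WT. JAG2 was lower in the capsules than in the L.O. set by −0.40 ± 0.10 (SE, edgeR adjusted p = 0.00223) and higher than in the Sph.WT set by 1.40 ± 0.10 (edgeR adjusted p = 1.51e-11).

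DLL1, on chromosome 6 (GRCh38.p14, 170282206 to 170291078, minus strand), encodes a ligand of the Delta class. It stood at 15.6, 15.3 and 15.3 CPM in the capsules and at 35.3, 34.8 and 36.7 CPM in the L.O. set. The Sph.WT libraries held 6, 3 and 0 counts, and in the last of these a count of 0 allows up to 0.181 CPM (3 counts, counting error only). The SD was 0.172 CPM in the capsules and 0.974 CPM in the L.O. set, with no overlap between them, and the Sph.WT values were at the limit of detection. DLL1 was lower in the capsules than in the L.O. set by −1.06 ± 0.12 (edgeR adjusted p = 6.68e-07), close to the change of NOTCH1. It was higher in the capsules than in the Sph.WT set by 6.51 ± 0.26 (edgeR adjusted p = 1.54e-16), a value that rests on 9 counts in that set. DLL1 overlaps FAM120B in the annotation, and since strand handling was not given in the sources used here, reads of the overlap cannot be assigned to either gene.

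JAG1, on chromosome 20 (GRCh38.p14, 10637684 to 10673999, minus strand), encodes the other Jagged ligand. It was the least abundant of the 9 genes in the capsules and the L.O. set, at 5.60, 8.01 and 6.69 CPM and at 12.3, 11.3 and 8.57 CPM, against 22.4, 26.5 and 25.9 CPM in the Sph.WT set. In plain CPM the capsule and L.O. values came close to each other without overlapping, and the Sph.WT values lay well above both. With the TMM factors applied, the capsule and L.O. values overlapped. JAG1 was lower in the capsules than in the L.O. set by −0.51 ± 0.16 (edgeR adjusted p = 0.0115), and this call was lost without capsule replicate 1 (−0.39, adjusted p = 0.0779) or without L.O. replicate 1 (−0.39, adjusted p = 0.0639). It was lower than in the Sph.WT set by −2.19 ± 0.15 in the capsules and −1.68 ± 0.13 in the L.O. set (edgeR adjusted p = 1.57e-12 and 4.8e-11).

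Per exon length, JAG2 made up 75.4% ± 0.83 of the 3 ligands in the capsules, 66.9% ± 1.96 in the L.O. set and 65.1% ± 5.70 in the Sph.WT set (SD, n = 3). Second among these 3 ligands was DLL1 in the capsules and the L.O. set, with 21.4% ± 1.04 and 30.0% ± 1.39, and JAG1 in the Sph.WT set, with 34.4% ± 6.23. The share of JAG1 was 3.25% ± 0.49 in the capsules and 3.15% ± 0.72 in the L.O. set, which overlapped (exact 2-sided permutation p = 0.90). In these bulk samples, fewer cells with a transcript and less of it per cell cannot be told apart.

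RBPJ, on chromosome 4 (GRCh38.p14, 26105449 to 26435131, plus strand), encodes the factor through which all Notch receptors act on DNA. Its levels were 85.0, 84.3 and 92.8 CPM in the capsules, 81.6, 77.3 and 79.4 CPM in the L.O. set, and 201.5, 201.5 and 208.9 CPM in the Sph.WT set. The Sph.WT libraries were far above the rest, and the capsules lay just above the L.O. set without overlap. RBPJ was higher in the capsules than in the L.O. set by 0.29 ± 0.07 (edgeR adjusted p = 0.00234), a call that was lost with library totals alone (0.14, adjusted p = 0.112). It was lower than in the Sph.WT set by −1.54 ± 0.07 in the capsules and −1.82 ± 0.07 in the L.O. set (edgeR adjusted p = 1.61e-15 and 6.58e-17).

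RBPJ binds DNA at a core written TGGGAA, and the best known targets hold it close to their start. The 250 bases before the start of HES1 and of its relatives HES4 and HES5 are printed below because HES1 is the member with the core among those matched at their start and the relatives carry it at a similar distance. Sequences are from RefSeq (GRCh38.p14), 5′ to 3′ on the strand of the gene. Capitals mark TGGGAA or, for the opposite strand, TTCCCA. The windows are chr3:194135898-194136147 (plus strand) for HES1, chr1:1000098-1000347 (minus strand) for HES4 and chr1:2530264-2530513 (minus strand) for HES5.
HES1: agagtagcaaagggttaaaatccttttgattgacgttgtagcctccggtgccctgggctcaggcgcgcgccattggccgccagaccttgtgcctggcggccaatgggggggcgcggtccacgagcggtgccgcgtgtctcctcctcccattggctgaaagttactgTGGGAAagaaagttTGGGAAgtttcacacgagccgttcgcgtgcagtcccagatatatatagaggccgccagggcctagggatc
HES4: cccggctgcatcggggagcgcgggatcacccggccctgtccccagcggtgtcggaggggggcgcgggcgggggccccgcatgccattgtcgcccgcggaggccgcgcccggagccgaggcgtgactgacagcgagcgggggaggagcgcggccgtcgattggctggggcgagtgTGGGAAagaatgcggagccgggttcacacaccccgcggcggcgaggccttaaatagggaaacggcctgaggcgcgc
HES5: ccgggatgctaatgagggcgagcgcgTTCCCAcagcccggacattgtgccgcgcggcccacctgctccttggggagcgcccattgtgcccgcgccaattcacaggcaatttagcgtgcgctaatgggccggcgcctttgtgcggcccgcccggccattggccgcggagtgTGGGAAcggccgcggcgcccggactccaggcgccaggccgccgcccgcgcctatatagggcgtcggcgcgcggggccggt

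HES1 held the core at 84 and at 70 bases before the start, both on the strand of the gene. HES4 held it at 76 bases, and HES5 at 224 bases on the opposite strand and at 80 bases on its own. Of 35116 promoter windows of this length, 20.85% held the core on either strand at least once and 2.90% at least 2 times. The longer form GTGGGAA, which contains the core, was in 5.43% of windows. The printed windows were chosen because they hold the core, so that share is given as background only. Of the other relatives and targets looked at, HEY2 held the core at 213 bases and HEYL at 178 and 99 bases, while HES6, NRARP and DLL4 held none. Besides HES1, windows at the start of the gene were matched for NOTCH1, NOTCH2, NOTCH3, JAG1 and JAG2, and none of these held a core within the 250 bases. The windows listed for RBPJ lie inside the gene at other starts and are not described, and DLL1 and HEY1 were not matched. A match is a description of the letters and not evidence of binding in these cells.

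HES1, on chromosome 3 (GRCh38.p14, 194136148 to 194138732, plus strand), encodes a repressor that is a direct target of Notch in many tissues and also answers to other pathways. Its levels were 41.0, 34.5 and 32.7 CPM in the capsules, 63.4, 65.9 and 76.9 CPM in the L.O. set, and 8.81, 5.95 and 6.99 CPM in the Sph.WT set. The 3 sets did not overlap, and the order was the same as for NOTCH3, JAG2 and DLL1. HES1 was lower in the capsules than in the L.O. set by −0.78 ± 0.11 (SE, edgeR adjusted p = 7.38e-06). It was higher than in the Sph.WT set by 2.02 ± 0.13 in the capsules and 2.80 ± 0.13 in the L.O. set (edgeR adjusted p = 8.13e-13 and 9.63e-16).

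HEY1, on chromosome 8 (GRCh38.p14, 79764010 to 79767767, minus strand), encodes a related repressor known as a Notch target in vessels and heart. It moved the other way between capsules and the L.O. set. Its levels were 269.6, 270.7 and 255.7 CPM in the capsules and 206.4, 208.3 and 216.0 CPM in the L.O. set, while the Sph.WT libraries held 19, 15 and 13 counts (0.956, 0.451 and 0.783 CPM). HEY1 was higher in the capsules than in the L.O. set by 0.49 ± 0.08 (edgeR adjusted p = 2.6e-05). Against the Sph.WT set it had the largest changes of the 9 genes, 8.28 ± 0.13 in the capsules and 7.79 ± 0.14 in the L.O. set (edgeR adjusted p = 1.65e-23 and 4.51e-23). In the L.O. set DLL1 came close, at 7.57 ± 0.24. Its range over the settings of the analysis (7.17 to 8.59) covered that of HEY1 (7.44 to 8.26), so their order there is not settled.

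Per exon length, the ratio of HEY1 to HES1 was 4.73 ± 0.46 in the capsules, 1.96 ± 0.15 in the L.O. set and 0.063 ± 0.013 in the Sph.WT set (SD, n = 3). The ratio was above 1 in all 6 capsule and L.O. libraries and below 1 in all 3 Sph.WT libraries. Capsules and the L.O. set did not overlap in it, with an exact 2-sided permutation p of 0.10, the smallest that this design allows. The ratio is independent of scaling, so the unequal change of these targets held under each scaling.

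**Figure D3:**
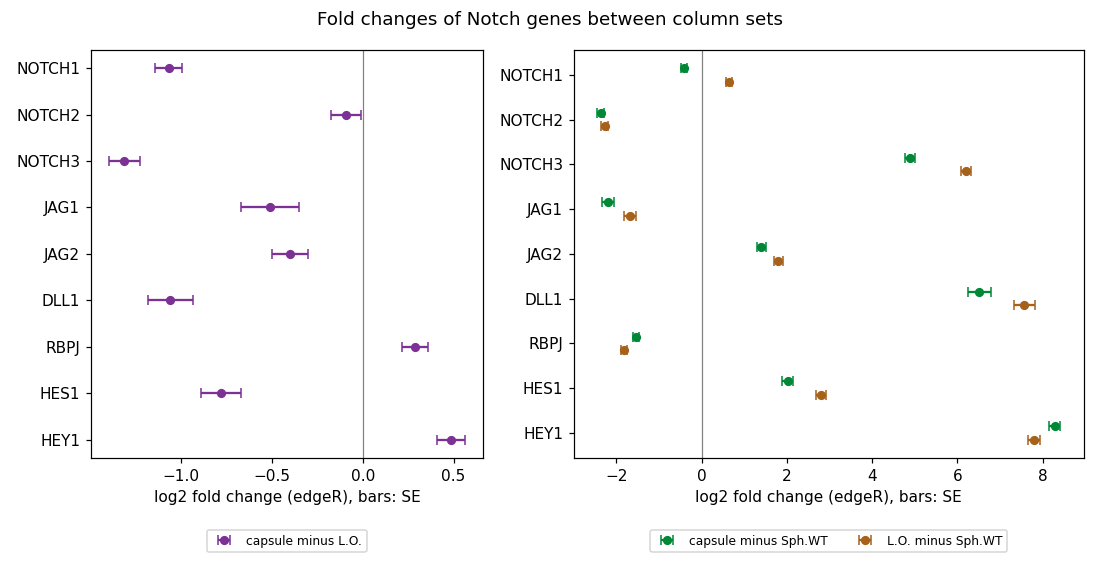
Log2 fold changes of the 9 Notch genes (horizontal axes) with their SE, for capsules minus the L.O. set (left) and for capsules and the L.O. set minus the Sph.WT set (right, wider axis). HEY1 and RBPJ lie right of 0 on the left side, NOTCH2 is within 0.25 of 0, and the other 6 genes lie left of it.

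Against the Sph.WT set, 5 of the 9 genes were higher in the capsules (NOTCH3, JAG2, DLL1, HES1 and HEY1) and 4 were lower (NOTCH1, NOTCH2, JAG1 and RBPJ). In that comparison 85.0% of all genes tested passed, 43.0% higher and 42.0% lower. The L.O. set against the Sph.WT set gave 6 higher and 3 lower, the difference being NOTCH1, which was higher by 0.65 ± 0.07 (edgeR adjusted p = 2.45e-08), and there 85.5% of all genes passed, 42.4% higher and 43.1% lower. With such a background, passing the test says little about these genes, so sizes are given as well. The genes were chosen with earlier results of these data known, so the sizes are a description only. The median absolute log2 change of the 9 genes was 2.19 for capsules and 2.28 for the L.O. set, beside 1.08 and 1.07 over all genes tested. Both comparisons share the Sph.WT libraries.

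When capsules were compared with the equally weighted mean of the L.O. and Sph.WT sets, all 9 genes passed, 5 higher and 4 lower, beside 74.4% of all genes tested (38.9% higher and 35.6% lower). For some of the 9 genes that comparison averages sets that lie on opposite sides of the capsules. NOTCH3 (1.79 ± 0.09), JAG2 (0.50 ± 0.09), DLL1 (2.73 ± 0.18) and HES1 (0.62 ± 0.10) came out higher although each was lower than in the L.O. set. RBPJ (−0.63 ± 0.06) came out lower although it was higher than in the L.O. set. HEY1 (4.38 ± 0.09) was higher, and NOTCH1 (−0.74 ± 0.07) and JAG1 (−1.35 ± 0.14) were lower, than in either set. NOTCH2 (−1.23 ± 0.08) was lower than in the Sph.WT set and did not pass against the L.O. set.

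The order of the 9 genes by level per kilobase of exon also differed between sets. That order rests on the exon lengths used, while the annotation behind the counts is not known. In the capsules HES1 was at rank 2 per kilobase and 7 by plain CPM, and NOTCH2 at 5 and 2. HEY1 was first in the capsules (82.1 ± 2.58 CPM per kilobase) and in the L.O. set (65.0 ± 1.58), and NOTCH2 was first in the Sph.WT set (35.5 ± 1.79). In the capsules HES1 and JAG2 followed (17.5 ± 2.11 and 16.9 ± 0.97) and overlapped. RBPJ, NOTCH2 and NOTCH3 came next (9.44 ± 0.51, 8.55 ± 0.52 and 7.97 ± 0.72), where neighbours overlapped, then DLL1 (4.77 ± 0.05), NOTCH1 (4.14 ± 0.10) and JAG1 (0.728 ± 0.130). In the L.O. set HES1 (33.3 ± 3.48) was followed by JAG2 and NOTCH3 (24.7 ± 2.06 and 22.0 ± 1.81), which overlapped. DLL1, NOTCH2 and NOTCH1 overlapped as neighbours there (11.0 ± 0.30, 10.1 ± 1.10 and 9.64 ± 0.50), and RBPJ (8.59 ± 0.23) and JAG1 (1.15 ± 0.21) were last. In the Sph.WT set RBPJ came second (22.0 ± 0.46), then JAG2 and NOTCH1, which overlapped (5.16 ± 1.02 and 4.46 ± 0.13), HES1 (3.52 ± 0.70) and JAG1 (2.68 ± 0.24). HEY1 and NOTCH3 overlapped near the bottom (0.226 ± 0.079 and 0.210 ± 0.029), above DLL1 (0.041 ± 0.048).

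Of all genes tested, 23.0% were lower in the capsules than in the L.O. set. Of 10 other HES and HEY family genes in the table, all 10 were lower in that comparison, with a median log2 change of −0.79 beside −0.02 over all genes. All 10 kept that direction across 18 settings of the analysis, and 6 to 10 of them passed, with 6 passing without L.O. replicate 3. HES4, a close relative of HES1, stood at 117.6 ± 24.8 CPM in the capsules, 191.7 ± 66.9 CPM in the L.O. set and 3.97 ± 0.88 CPM in the Sph.WT set (SD, n = 3), and changed by −0.55 ± 0.17 between the first of these sets and the second (edgeR adjusted p = 0.009). HES5, a classic Notch target of neural progenitors, was at 4.02 ± 0.09 and 11.9 ± 1.08 CPM, a change of −1.42 ± 0.16 (edgeR adjusted p = 8.55e-07). BHLHE40, a repressor of the same superfamily that answers to hypoxia and the circadian clock, was at 165.4 ± 2.92 and 249.0 ± 28.6 CPM, and changed by −0.44 ± 0.08 (edgeR adjusted p = 0.000104). HEY1 was the exception in the family, since it was higher in the capsules.

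HES5, HEY2 and HELT had 0 counts in every Sph.WT library. Measured against the 3-count limit per library on the TMM scale, HES5 was at least 23.1-fold and HEY2 at least 46.6-fold higher in the capsules, and HELT, a neural relative of HEY, at least 3.40-fold. In the L.O. set the bounds were at least 61.7-fold, 66.3-fold and 7.50-fold. Of the 10 family genes, 7 were higher and 2 lower in the capsules than in the Sph.WT set (1 lower with other scalings, with DESeq2, or without capsule replicate 2 or 3 or Sph.WT replicate 1 or 2), and 9 were higher and 1 lower in the L.O. set. Their median log2 changes were 3.91 and 4.45, or 2.80 and 3.34 with the 3 genes at their bounds. Over all genes tested, 85.0% and 85.5% passed in these comparisons.

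**Figure D4:**
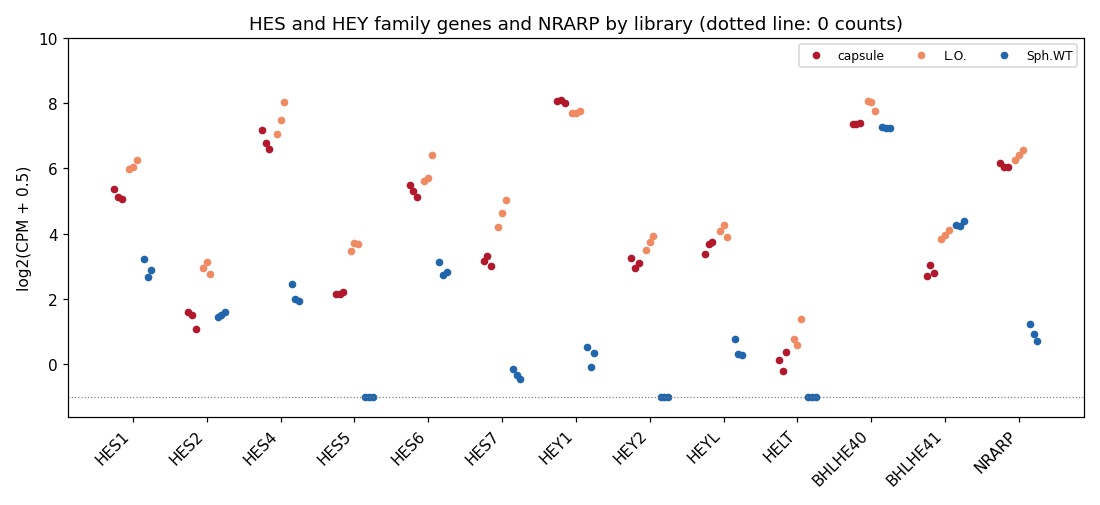
Level of HES1, HEY1, 10 other HES and HEY family genes and NRARP in each library, as log2(CPM + 0.5), with the dotted line at 0 counts. HES5, HEY2 and HELT sit on the line in all 3 Sph.WT libraries, and HEY1 is the family gene whose capsule values lie above its L.O. values.

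Among 10 other genes known as Notch targets in one tissue or another, 2 were higher and 3 lower in the capsules than in the L.O. set (5 lower with library totals), and 5 did not pass. Over all genes tested, 22.5% were higher and 23.0% lower. NRARP, a feedback inhibitor that binds the Notch intracellular domain, stood at 67.5 ± 3.62 CPM in the capsules, 84.9 ± 8.93 CPM in the L.O. set and 1.47 ± 0.36 CPM in the Sph.WT set (SD, n = 3). Its change between capsules and the L.O. set was −0.18 ± 0.09 (edgeR adjusted p = 0.109), while against the Sph.WT set it was higher by 5.19 ± 0.14 (edgeR adjusted p = 4.65e-20). MYC, a growth regulator, was higher in the capsules (162.4 ± 14.9 CPM) than in the L.O. set (96.4 ± 2.67 CPM) by 0.90 ± 0.08 (edgeR adjusted p = 1.34e-08), and so was TRIB1, a pseudokinase, by 0.70 ± 0.10 (edgeR adjusted p = 5.22e-06). SOX9, a progenitor transcription factor, was lower in the capsules by −1.01 ± 0.10 (edgeR adjusted p = 1.03e-07). The cell cycle gene CCND1 (73.9 and 82.9 CPM) and the inhibitor of differentiation ID1 (9.26 and 10.7 CPM) did not pass. In both capsules and the L.O. set, 3 of the 10 were higher and 7 lower than in the Sph.WT set. The genes were not all the same. MYC was higher in the capsules (0.33 ± 0.08, edgeR adjusted p = 0.000348) and lower in the L.O. set (−0.57 ± 0.08, edgeR adjusted p = 3.71e-07). CDKN1A was lower in the capsules (−1.02 ± 0.10, edgeR adjusted p = 2.59e-09) and higher in the L.O. set (0.67 ± 0.095, edgeR adjusted p = 9.19e-07). In the Sph.WT set CCND1 was at 368.1 ± 17.5 CPM, ID1 at 156.3 ± 31.1 CPM and SOX9 at 117.9 ± 8.51 CPM. With library totals, 4 in place of 7 were lower in the L.O. set than in the Sph.WT set. Against the Sph.WT set, 85.0% of all genes tested passed for capsules and 85.5% for the L.O. set.

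The other ligands were not part of the ligand shares. Of 3 in the table, DLL3, an inhibitory ligand, was at 11.9 ± 1.46 CPM in the capsules, 10.7 ± 0.78 CPM in the L.O. set and 0.154 ± 0.076 CPM in the Sph.WT set. Per kilobase of exon, DLL3 stood at 4.53 ± 0.56 CPM in the capsules, near DLL1 (4.77 ± 0.05) and above JAG1 (0.728 ± 0.130). In the L.O. set DLL3, DLL1 and JAG1 stood at 4.08 ± 0.30, 11.0 ± 0.30 and 1.15 ± 0.21. DLL4, the ligand of sprouting vessels, was at 2.84 ± 1.28, 4.50 ± 0.57 and 0.197 ± 0.156 CPM. Neither passed between capsules and the L.O. set (edgeR adjusted p = 0.0839 and 0.14), and DLK2, a Delta-like protein of adipocytes and other cells, was lower in the capsules by −0.57 ± 0.14 (edgeR adjusted p = 0.00198). Without capsule replicate 2, 2 of these 3 genes were lower in the capsules, and without capsule replicate 3, 1 was higher. Against the Sph.WT set DLL3 and DLL4 were higher in the capsules and in the L.O. set. NOTCH4 and DLK1 were not analysed here.

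Of 18 genes that process ligands and receptors, 3 were higher and 9 lower in the capsules than in the L.O. set, and 6 did not pass. Over all genes tested, 22.5% were higher and 23.0% lower. ADAM10, the protease of the first cut, was at 47.6 ± 4.53 CPM in the capsules and 51.5 ± 2.03 CPM in the L.O. set (edgeR adjusted p = 0.757), as against 408.6 ± 26.8 CPM in the Sph.WT set. APH1A, a subunit of gamma-secretase, was at 183.0 ± 5.55 and 198.6 ± 7.57 CPM (edgeR adjusted p = 0.729). LFNG, a Fringe enzyme that adds sugars to Notch and shifts its ligand preference, was lower in the capsules by −0.63 ± 0.22 (edgeR adjusted p = 0.0229), and NEURL1B, a ubiquitin ligase that helps ligand uptake, by −1.18 ± 0.16 (edgeR adjusted p = 2.93e-06). MFNG, another Fringe enzyme, did not pass (0.771 ± 0.513 and 1.29 ± 0.36 CPM). Compared with the Sph.WT set, 4 of the 18 were higher and 13 lower in the capsules, and 4 were higher and 14 lower in the L.O. set (8 lower with library totals). Against the Sph.WT set, 85.0% of all genes tested passed for capsules and 85.5% for the L.O. set. LFNG was lower by −4.00 ± 0.17 and ADAM10 by −3.42 ± 0.09 in the capsules (edgeR adjusted p = 2.81e-16 and 2.48e-20).

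Of all genes tested, 22.5% were higher and 23.0% lower in the capsules than in the L.O. set. Of 11 regulators of receptor turnover, 1 was higher and 5 were lower in that comparison. The count of lower genes was 8 with library totals and 3 without L.O. replicate 2, and that of higher genes was 0 with library totals or without capsule replicate 3 or L.O. replicate 2. The higher one was ITCH, a ubiquitin ligase that marks Notch for breakdown, at 69.5 ± 4.77 and 64.3 ± 3.71 CPM (0.26 ± 0.08, edgeR adjusted p = 0.0121). DTX1, a Deltex protein that binds Notch, was lower by −1.59 ± 0.28 (edgeR adjusted p = 0.000117), and its relative DTX2 by −0.33 ± 0.11 (edgeR adjusted p = 0.0205). NUMB, which opposes Notch during asymmetric division, was at 56.9 ± 2.54 and 71.1 ± 1.54 CPM (edgeR adjusted p = 0.0825). NEDD4 (11.3 and 12.7 CPM) and DTX3L (4.93 and 6.84 CPM) did not pass. In the capsules 2 of the 11 were higher and 8 lower than in the Sph.WT set, and in the L.O. set 2 were higher (4 with library totals) and 7 lower. Over all genes tested, 85.0% and 85.5% passed in these comparisons. DTX1 had 0 counts in all Sph.WT libraries and was at least 7.08-fold higher in the capsules and at least 21.5-fold higher in the L.O. set.

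Of all genes tested, 22.5% were higher and 23.0% lower in the capsules than in the L.O. set. Of 22 nuclear cofactors tested, 3 were higher and 10 lower in that comparison, and 9 did not pass. Without capsule replicate 1, and likewise without L.O. replicate 2, 5 were lower. MAML2, a Mastermind coactivator, was at 2.37 ± 0.23, 4.29 ± 0.76 and 81.7 ± 6.79 CPM in the capsule, L.O. and Sph.WT sets, and MAML3 at 7.66 ± 0.87, 9.22 ± 0.97 and 1.17 ± 0.55 CPM. MAML2 was lower in the capsules than in the L.O. set by −0.70 ± 0.19 (edgeR adjusted p = 0.00366), and MAML3 did not pass (edgeR adjusted p = 0.614). SPEN, a corepressor that binds RBPJ, was at 633.2 ± 33.4, 844.3 ± 10.6 and 94.9 ± 14.2 CPM, and was lower in the capsules by −0.27 ± 0.09 (edgeR adjusted p = 0.0165). TLE4, a Groucho corepressor that works with HES proteins, was at 63.0 ± 4.17, 81.9 ± 0.45 and 0.308 ± 0.110 CPM, a change of −0.23 ± 0.08 between capsules and the L.O. set (edgeR adjusted p = 0.0238). The deacetylase HDAC1 was at 565.7 ± 7.40 and 688.8 ± 18.9 CPM (edgeR adjusted p = 0.097). In the capsules 15 of the 22 were higher and 6 lower (3 with library totals) than in the Sph.WT set, and in the L.O. set 13 were higher and 3 lower. Over all genes tested, 85.0% and 85.5% passed in these comparisons.

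**Figure D5:**
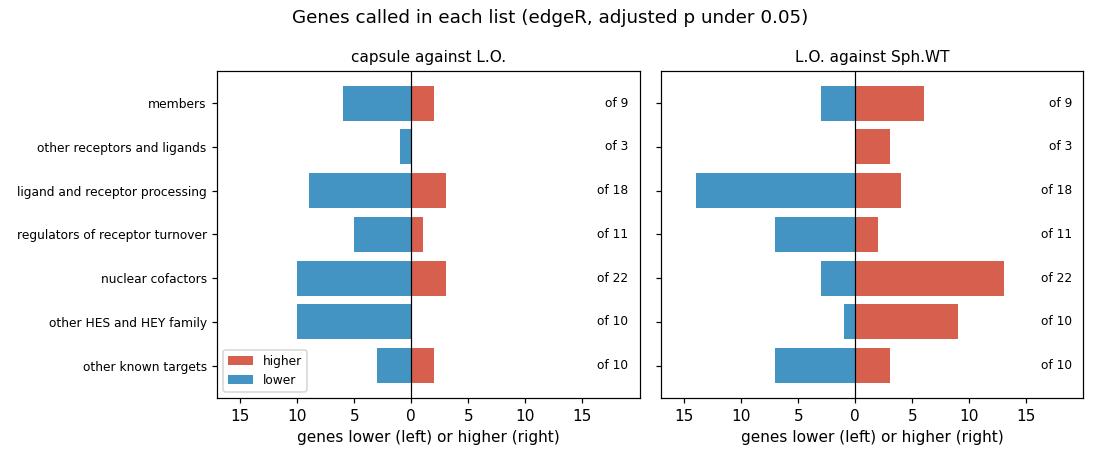
Number of genes in each list that were lower (left of 0) or higher (right of 0), for capsules against the L.O. set and for the L.O. set against the Sph.WT set, with the number tested at the right. The 10 other HES and HEY family genes all lie on the lower side in the capsules and 9 of 10 lie on the higher side in the L.O. set. Over all genes tested, 23.0% and 42.4% lay on these sides.

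Markers of other cells also differed between the sets. For fibroblasts 9 of 10 markers were in the table, with a summed level of 116.6 to 127.4 CPM in the capsules, 243.2 to 274.0 CPM in the L.O. set and 188.7 to 215.4 CPM in the Sph.WT set. That sum rests on few genes: FBLN1 (73.2 and 151.0 CPM) and COL1A1 (38.9 and 86.3 CPM) led it in the capsules and the L.O. set, where the median marker was at 0.471 and 0.956 CPM. The markers did not all move together, since COL1A2 was at 0.471 ± 0.219 CPM in the capsules and 0.360 ± 0.126 CPM in the L.O. set, and THY1 and FAP were under the filter with capsule means above the L.O. means. For endothelium 6 of 10 were in the table, at 12.7 to 13.3, 24.1 to 30.7 and 13.4 to 19.2 CPM, led by FLT1 in the capsules and the L.O. set. For immune cells the sum of 5 markers, led by CD68, was 8.75 to 11.96 CPM in the capsules, 29.2 to 32.4 CPM in the L.O. set and 134.8 to 152.0 CPM in the Sph.WT set. These sums were lower in the capsules than in the L.O. set, as were NOTCH1, NOTCH3, JAG1, JAG2, DLL1 and HES1, and their part in those results was not tested.

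The genes most like each Notch gene across the 9 libraries were found by the Pearson r of log2(CPM + 0.5), given as a description. Because the sets lie far apart, many genes follow each pattern: 131 of 16816 genes had r above 0.95 with NOTCH1, and 4252 with HEY1. NOTCH1, with its L.O. peak, was most like ENO3 (0.993), a muscle enolase, and DEPP1 (0.993). NOTCH3 was most like CAMSAP3 and HOXB5, DLL1 like DBN1 and IRX6, JAG2 like TBC1D10B and KLHL17, and HES1 like PALM and RASIP1. HEY1 was most like the folate carrier SLC19A1 and the enzyme CBS. Among the Notch genes highest in the Sph.WT set, NOTCH2 was most like RAPH1 and PRKCA, JAG1 like SOGA1 and IL4R, and RBPJ like RAB14 and CLDND1. The libraries share their set, and with it cells, depth and header form, in all these values.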

How the data were processed

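The deposited values were raw counts of reads per gene, whole numbers for 17911 genes (237 without a symbol). The build (hg38) and the tools named (featureCounts, limma) are per the submitters' processing notes. For the aligner, the annotation and strand handling, the sources used here give nothing. Columns were matched to samples by name: 3 to single capsule samples and 6 to the spheroid group, with 0 columns left unmatched.

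Levels are CPM by library total. Tests used edgeR 4.0.16 in R 4.3.3 (TMM scaling, default filter on low counts, quasi-likelihood F test, 16985 genes, Benjamini-Hochberg adjustment, threshold 0.05) with 1 mean for each of the 3 column sets. SE was taken as the log2 change over the root of F. The fit was checked on simulated counts in which most genes did not differ between sets. That check did not cover gaps as wide as the one to the Sph.WT set. Alternatives used DESeq2 1.42.0 and limma 3.58.1 as well. Lengths are joined exons of GENCODE release 29, known for 95.65% of genes. Positions and promoters come from RefSeq (GRCh38.p14).

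The Notch genes and all lists were chosen with earlier results of these data known. Named were all 9 genes and, in each list, up to 4 genes with the largest change among those called for capsules against the spheroid mean and the 2 most abundant. CDKN2A was named as the check of the cell line, and CDKN1A because its changes against the Sph.WT set had opposite signs. One marker gene is not reported here and was left out of its list's sum.

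Libraries held 13212665 to 33263076 counts, and a count of 0 allows 3 counts, or 0.0902 to 0.227 CPM. Such limits cover counting error only, because without molecular identifiers reads can be copies of one molecule. The common biological coefficient of variation was 7.73%. Every pair of libraries within a set differed beyond counting noise.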

Additional observations from a re-analysis of the deposited data

How the results depend on the processing

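Of 612 recomputed changes of the 9 Notch genes, 598 kept their direction and side of the threshold. With 1 mean for all 6 spheroid columns, 639 genes were called between capsules and spheroids in place of 12643. NOTCH3 then turned to −0.33 and DLL1 to −0.068, and the other 7 genes lost their call (adjusted p 0.0874 to 0.987). That setting counts the gap between the L.O. and Sph.WT sets as spread. The 5 other alternatives that moved a call across the threshold, and those that moved a list's count by over 1.5 times, stand beside their genes above. With library totals in place of TMM factors, the median of all genes shifted by −0.15 for capsules against the L.O. set, where the share of genes higher went from 49.5% to 27.8%. It shifted by 0.31 for capsules (50.6% to 60.3%) and by 0.46 for the L.O. set (49.6% to 63.9%) against the Sph.WT set. TMM-scaled levels moved 16 of 27 mean levels by more than 1 SD. Leaving out each library gave 11859 to 12687 calls for capsules against spheroids, 6426 to 8018 against the L.O. set, 14194 to 14688 against the Sph.WT set and 14312 to 14760 between the last 2. Header numbers did not pair the libraries, since deviations of same-numbered columns correlated at −0.416 to 0.216. A replicate block by header number gave 12337, 7134, 14243 and 14350 calls in the same order and changed no call of the 9 genes. DLL1 and HEY1 rest on few counts in the Sph.WT set. Their log2 changes against it ranged from 6.12 to 7.54 and from 7.93 to 8.60 in the capsules. JAG2, with more counts there, ranged from 1.29 to 1.71. The parts of low counts and of scaling in these ranges were not tested. An alternative with only the 2 compared sets in the fit was chosen after seeing the data.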
